A study of Arabidopsis thaliana with 24 samples.

Results

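The jasmonate genes *ACX1*, *JMT*, *JRG21* and *VSP1* were followed across 8 groups of Arabidopsis shoots and roots that differed in phosphate (Pi) supply and in genotype. They were chosen by name, with earlier results of these data known. The shares of all probe sets given beside their counts are therefore a description and not a test. Each gene had 1 matched probe set on the Affymetrix ATH1 array, so 4 of the 22746 probe sets tested are described. Jasmonates are lipid-derived plant hormones. Their carbon chain comes from a fatty acid that is released from membrane lipids and oxidised in the plastid, then shortened by β-oxidation in the peroxisome. The finished acid is conjugated to isoleucine to give the active hormone, or is methylated, hydroxylated or otherwise turned over. The conjugate is perceived by COI1 together with JAZ repressors, whose removal frees MYC transcription factors, and in shoots this pathway is best known for responses to wounding, chewing insects and several nutrient stresses.

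The 24 arrays fell into 8 groups of 3 biological replicates, all from plants of the Columbia (Col-0) background grown for 7 days on solid Johnson medium with 2% sucrose. Wild type shoots and roots came from medium with 2 mM Pi (+Pi) and from medium without Pi (−Pi). Shoots and roots of *phr1*, which lacks the MYB transcription factor PHR1, and of the *phr1 phl1* double mutant were sampled at −Pi alone, so what these mutants do at +Pi was not measured. The phl1 allele is a single T-DNA insertion line.

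The signal is given throughout as the deposited RMA value, which is on a log2 scale, so that a difference of 1 is a change of 2-fold. Within a group, each array had a mean correlation of 0.968 to 0.994 with its fellows, and the lowest values belonged to replicate 2 of *phr1* shoots (0.968) and replicate 2 of wild type shoots at −Pi (0.969). The mean signal of 8 leaf marker probe sets was 11.3 to 11.71 in shoots and 5.50 to 6.62 in roots of wild type and *phr1*, but 7.05 to 7.66 in the roots labelled *phr1 phl1*. The 2 root markers averaged 7.37 to 8.41 in shoots and 9.54 to 10.84 in roots. *PHL1* signal was 7.06 to 9.31 in the 6 arrays labelled *phr1 phl1* and 4.34 to 6.06 in the other arrays, the opposite of what a loss of transcript would give. The position of this probe set on the transcript with respect to the insertion was not established, and no probe set was matched to *PHR1*. These 6 arrays are therefore named by their label.

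In wild type shoots, all 4 genes rose when Pi was withheld. *JRG21*, *VSP1* and *JMT* rose by a log2 fold change of 5.48, 5.10 and 4.27, and *ACX1* by 1.27. For every one of the 4, the 3 starved wild type shoot arrays were the highest 3 of the 24 arrays. In roots no such rise was measured, and in starved shoots of *phr1* and in those labelled *phr1 phl1* most or all of the rise was absent. The plot of signal by array shows this pattern.

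**Figure D1:**
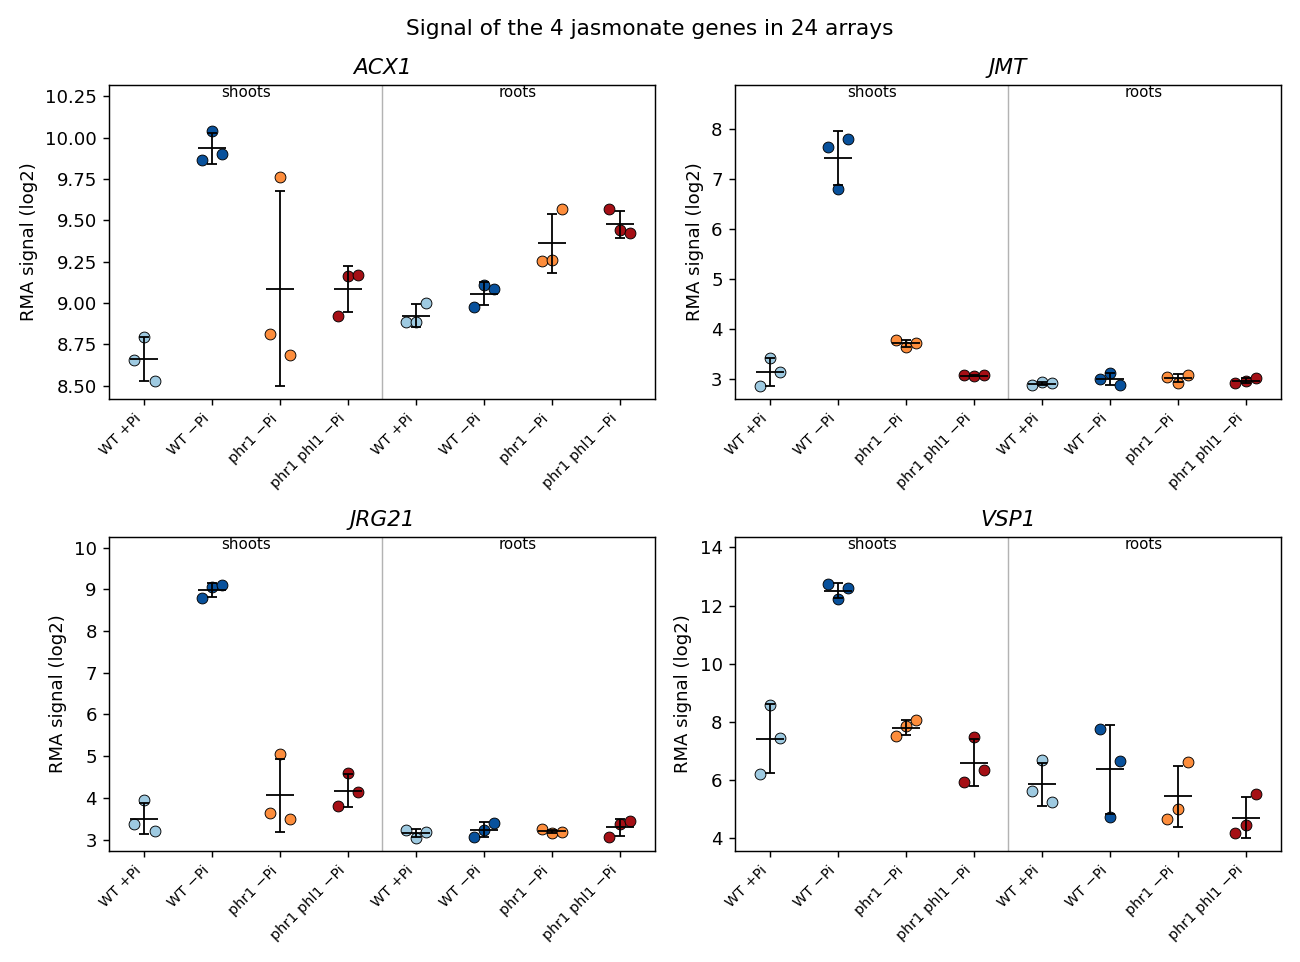
RMA signal (log2, y axis) of *ACX1*, *JMT*, *JRG21* and *VSP1* in each of 24 arrays (points), with shoots on the left and roots on the right of each panel. Horizontal bars are group means and error bars the SD of 3 arrays, and the y axes differ between panels and do not start at 0. Wild type shoots at −Pi lie above every other group in all 4 panels, with a much smaller gap for *ACX1*.

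*ACX1* encodes an acyl-CoA oxidase that performs the first step of each round of β-oxidation on the jasmonate precursor in the peroxisome. Its signal was 9.86, 10.04 and 9.90 in the 3 replicates of wild type shoots at −Pi and 8.66, 8.80 and 8.53 at +Pi. In *phr1* shoots at −Pi it was 8.81, 9.76 and 8.69, and in the shoots labelled *phr1 phl1* 8.92, 9.16 and 9.17. Starved wild type shoots thus did not overlap any other group, although replicate 2 of *phr1* came within 0.1 of them and stood well above its fellows.

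In roots the *ACX1* signal was 8.886, 8.883 and 9.003 in wild type at +Pi and 8.98, 9.11 and 9.08 at −Pi. It was 9.25, 9.26 and 9.57 in *phr1* and 9.57, 9.44 and 9.42 in the roots labelled *phr1 phl1*. Among roots, both mutant groups lay above both wild type groups without overlap. In the order of group means, wild type shoots at −Pi (9.94 ± 0.0918, SD, n = 3) were followed by the roots labelled *phr1 phl1* (9.48), *phr1* roots (9.36), *phr1* shoots and shoots labelled *phr1 phl1* (9.09 each), wild type roots at −Pi (9.06), wild type roots at +Pi (8.92) and wild type shoots at +Pi (8.66). *ACX1* was well expressed everywhere: its group means lay between the 90.9th and the 96.8th percentile of all probe sets on the arrays.

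*JMT* encodes the methyltransferase that converts jasmonic acid to its volatile methyl ester. Its signal was 7.64, 6.80 and 7.80 in wild type shoots at −Pi and 2.86, 3.43 and 3.13 at +Pi. It was 3.78, 3.65 and 3.72 in *phr1* shoots and 3.09, 3.05 and 3.08 in the shoots labelled *phr1 phl1*. The *phr1* shoots lay above the shoots of wild type at +Pi and above those labelled *phr1 phl1* without overlap, but far below starved wild type.

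In the 12 root arrays, *JMT* stayed between 2.88 and 3.12, and the 4 root groups overlapped. These values sit near the bottom of the signal range, between the percentiles 5.73 and 9.6 of all probe sets, against the 79th in starved wild type shoots. No detection calls were used, so whether *JMT* was expressed at all in roots cannot be read from these values.

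*JRG21* encodes a 2-oxoglutarate-dependent oxygenase of the group that hydroxylates jasmonic acid to an inactive form, and its own transcript is jasmonate-induced. Its signal was 8.79, 9.06 and 9.10 in wild type shoots at −Pi and 3.37, 3.94 and 3.21 at +Pi. In *phr1* shoots it was 3.63, 5.06 and 3.49, and in the shoots labelled *phr1 phl1* 3.80, 4.59 and 4.13. The 3 lower shoot groups overlapped, and the highest single value among them was again replicate 2 of *phr1*. In roots the signal was 3.04 to 3.44 in all 12 arrays, with all neighbouring groups overlapping, at the 13.6th to 17.8th percentile of probe sets.

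*VSP1* encodes a vegetative storage protein of leaves that is widely used as a marker of the MYC branch of the jasmonate response. Its probe set is of the type whose probes are shared by near-identical transcripts, so *VSP1* and its close relative *VSP2* cannot be told apart here. The signal was 12.73, 12.23 and 12.59 in wild type shoots at −Pi, at the 99.9th percentile of all probe sets, and 6.21, 8.58 and 7.45 at +Pi. It was 7.50, 7.85 and 8.04 in *phr1* shoots and 5.92, 7.49 and 6.34 in the shoots labelled *phr1 phl1*. Starved wild type shoots again stood apart. The wild type shoots at +Pi overlapped both mutant groups, whereas the lowest *phr1* value lay just above the highest of those labelled *phr1 phl1*.

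*VSP1* was the most variable of the 4 genes within groups, with an SD of 1.19 in wild type shoots at +Pi and 1.54 in wild type roots at −Pi. In roots its signal was 5.63, 6.67 and 5.22 in wild type at +Pi and 7.73, 4.70 and 6.64 at −Pi. It was 4.66, 4.98 and 6.62 in *phr1* roots and 4.15, 4.45 and 5.49 in the roots labelled *phr1 phl1*. Neighbouring root groups overlapped, and starved wild type roots alone spanned nearly the whole range.

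The first comparison asked what Pi starvation does in wild type. Tests are limma's moderated test in 1 model over all arrays, with p-values adjusted by Benjamini-Hochberg over all probe sets, and a gene is said to have risen or fallen where the adjusted p was under 0.05. In shoots, 4 of 4 genes rose, where 15.9% of all probe sets were called higher. The change was 19.3-fold for *JMT* (log2 4.27, standard error 0.176, adjusted p = 5.06e-13) and 44.5-fold for *JRG21* (log2 5.48, standard error 0.291, adjusted p = 2.25e-11). It was 34.3-fold for *VSP1*, where the larger spread gave a standard error of 0.688 (log2 5.10, adjusted p = 6.72e-06). *ACX1* rose 2.42-fold (log2 1.27, standard error 0.185, adjusted p = 1.55e-05). At +Pi, *JMT* and *JRG21* lay at the percentiles 11.3 and 22.2 of all probe sets in these shoots. The size of their folds thus rests on signals low in the range. Since the arrays read whole organs, more RNA per cell and more cells that make it cannot be told apart.

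In wild type roots, 0 of 4 genes passed by limma, and none had an unadjusted p under 0.05, where 12.1% of all probe sets were called in either direction. The log2 difference was 0.09 for *JMT* (95% confidence interval −0.28 to 0.46), 0.13 for *ACX1* (−0.25 to 0.52), 0.09 for *JRG21* (−0.52 to 0.69) and 0.52 for *VSP1* (−0.92 to 1.96). These intervals exclude changes as large as those in shoots, though the interval of *VSP1* does not exclude a rise of up to 1.96. Its direction was not stable, since the difference was −0.17 without replicate 1 and 1.35 without replicate 2 of the starved wild type roots. The difference between organs was tested directly as an interaction. The Pi response was lower in roots for 4 of 4 genes, where 8.73% of all probe sets were called in that direction. Roots minus shoots, it was −4.18 for *JMT* and −5.39 for *JRG21* (adjusted p = 1.16e-09 and 4.49e-08), −4.58 for *VSP1* (adjusted p = 0.00222) and −1.14 for *ACX1* (adjusted p = 0.00395).

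At +Pi no difference between the organs reached the threshold. Between wild type shoots and roots at +Pi, 0 of 4 passed by limma, where 47.1% of all probe sets did. *VSP1* was 1.57 higher in shoots (95% confidence interval 0.13 to 3.01, unadjusted p = 0.034 from limma, adjusted p = 0.0685), and it would have passed without replicate 1 of the wild type shoots at +Pi (2.17) or without replicate 2 of the roots (1.99). The other 3 differed by between −0.26 (*ACX1*) and 0.36 (*JRG21*).

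The second comparison set starved mutants against starved wild type. In *phr1* shoots, 4 of 4 genes were lower, where 14.9% of all probe sets were called lower. The log2 difference was −4.92 for *JRG21*, −4.72 for *VSP1* and −3.70 for *JMT* (adjusted p = 1.78e-10, 1.94e-05 and 8.58e-12 by limma). For *ACX1* it was −0.85 (95% confidence interval −1.23 to −0.46, adjusted p = 0.00121). Without replicate 2 of *phr1*, the array nearest to wild type, the difference was −1.19, and with the 2 groups fitted alone the adjusted p was 0.0938. In that smaller fit with the replicate number as a block, it was 0.0231.

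In the shoots labelled *phr1 phl1*, 4 of 4 genes were again lower, where 16.4% of all probe sets were called lower. The difference was −5.93 for *VSP1* (adjusted p = 8.53e-07), −4.81 for *JRG21* (1.60e-10) and −4.34 for *JMT* (5.42e-13). It was −0.85 for *ACX1* (adjusted p = 0.000969), the same size as in *phr1*. Both mutant comparisons use the same 3 wild type arrays, so their similarity is not independent. The plot of differences sets these values beside those for roots.

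**Figure D2:**
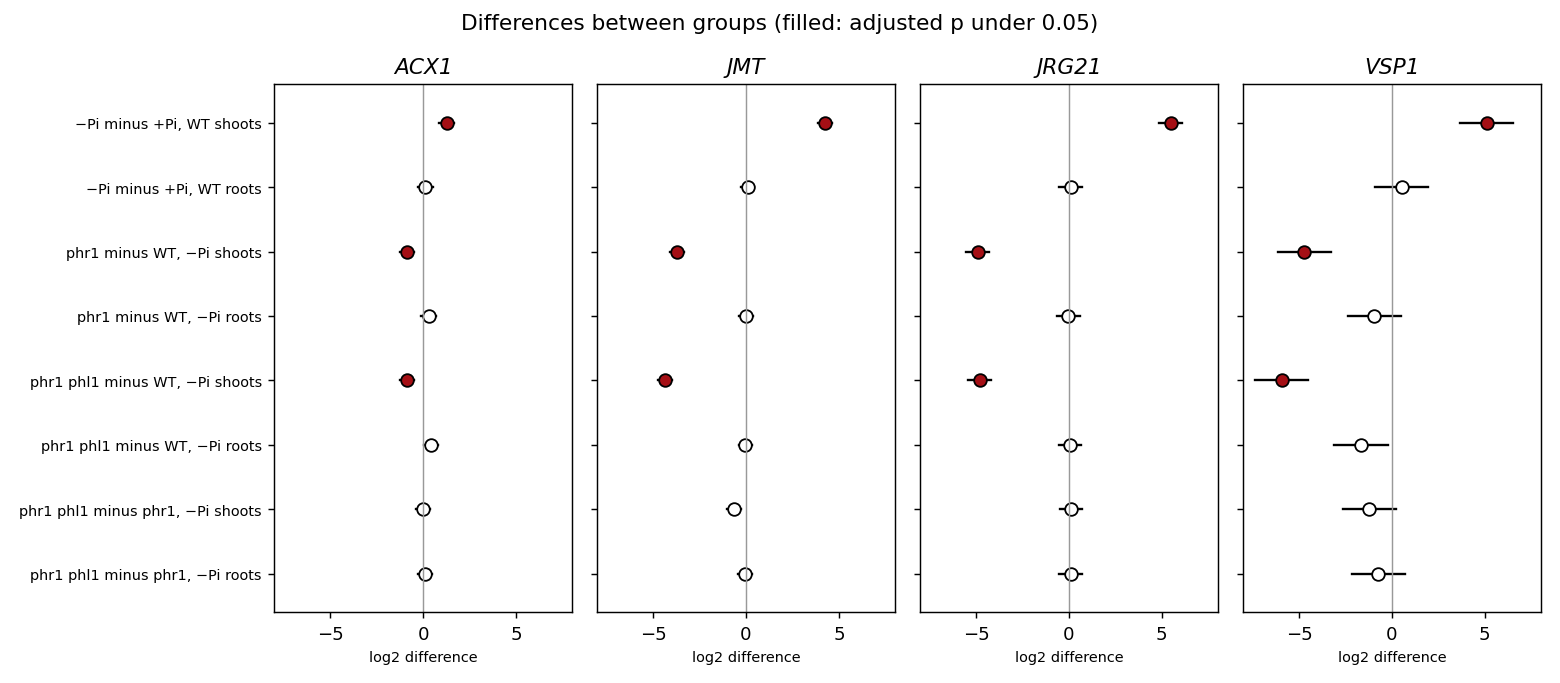
Log2 difference (x axis) between 2 groups for each gene (panels) in 8 comparisons (rows), with 95% confidence intervals from the limma model as lines and filled points where the adjusted p was under 0.05. The 3 comparisons that involve starved wild type shoots are filled in every panel, and the 4 root comparisons and both comparisons between mutants are open.

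In roots, neither mutant differed from starved wild type in any of the 4 genes at the threshold. For *phr1*, 0 of 4 passed by limma, where 5.39% of all probe sets did, and none of the 4 had an unadjusted p under 0.05. For the roots labelled *phr1 phl1* it was 0 of 4, where 13.1% did, but 2 of the 4 had an unadjusted p under 0.05 by limma. *ACX1* was 0.42 higher (95% confidence interval 0.03 to 0.81, unadjusted p = 0.0344, adjusted p = 0.169), and it passed when roots were fitted without shoots (adjusted p = 0.0107). The difference of *VSP1* was −1.66 (95% confidence interval −3.10 to −0.22, unadjusted p = 0.0259, adjusted p = 0.138), and without replicate 2 of the wild type roots at −Pi the difference was −2.49 and passed (adjusted p = 0.0175).

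Leaf markers differed in the same comparison: 7 of 8 were higher in the roots labelled *phr1 phl1* than in starved wild type roots, and their part in the *ACX1* and *VSP1* values was not tested. In those roots *JMT* differed from starved wild type roots by −0.03 and *JRG21* by 0.06 (adjusted p = 0.961 and 0.956 by limma). The effect of genotype differed between organs for all 4 genes. The log2 difference of *phr1* from starved wild type was negative in shoots for all 4 and passed for none in roots. Roots minus shoots, this difference was 3.71 for *JMT*, 4.89 for *JRG21*, 3.78 for *VSP1* and 1.15 for *ACX1*, where 9.55% of all probe sets were called in that direction. For *phr1 phl1* these values were 4.31, 4.87, 4.27 and 1.27, where 11.2% were called. *JMT* and *JRG21* were already near the bottom of the signal range in starved wild type roots (percentiles 7.92 and 15.2). A further fall could hardly show there, so their interactions mainly restate the shoot differences.

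The third comparison asked whether the shoots labelled *phr1 phl1* differed from *phr1*. By limma, 0 of 4 genes passed in shoots, where 1.65% of all probe sets did. *JMT* came closest, with a difference of −0.64 (95% confidence interval −1.01 to −0.28, unadjusted p = 0.00166, adjusted p = 0.0746), and its 3 arrays in each group did not overlap. That of *VSP1* was −1.22, with an interval of −2.66 to 0.22. *JRG21* and *ACX1* differed by 0.11 (−0.50 to 0.72) and 0.00 (−0.39 to 0.39). In roots 0 of 4 passed by limma, where 4.10% of all probe sets did, and none of the 4 had an unadjusted p under 0.05. The root differences lay between −0.72 for *VSP1* and 0.12 for *ACX1*.

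How much of the response was left in the mutants was read from starved mutants against wild type at +Pi, with the caution that genotype and Pi supply both differ. In *phr1* shoots 1 of 4 genes passed, where 25.3% of all probe sets did: *JMT* was 0.57 higher (95% confidence interval 0.20 to 0.94, adjusted p = 0.0205 by limma), against 4.27 in wild type. That call was lost without replicate 1 of the wild type shoots at +Pi (0.43, adjusted p = 0.119), without replicate 3 of the same group (0.57, adjusted p = 0.0542) and without replicate 1 of *phr1* (0.54, adjusted p = 0.0603). *JRG21* differed by 0.55 (adjusted p = 0.192), or 0.06 without replicate 2 of *phr1*. *VSP1* differed by 0.38 (adjusted p = 0.767), or −0.22 without replicate 1 and 0.97 without replicate 2 of the wild type shoots at +Pi. *ACX1* was 0.43 higher (adjusted p = 0.104), a value that was 0.09 without replicate 2 of *phr1*, and that passed without replicate 1 (0.56) or replicate 3 (0.63) of that group.

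In the shoots labelled *phr1 phl1*, 0 of 4 genes passed by limma, where 24.6% of all probe sets did. Of the 4, 2 had an unadjusted p under 0.05. *JRG21* was 0.67 higher (95% confidence interval 0.06 to 1.28, adjusted p = 0.109) and *ACX1* 0.43 higher (0.04 to 0.81, adjusted p = 0.106). *JMT* differed by −0.07 (−0.44 to 0.30) and *VSP1* by −0.83 (−2.27 to 0.61). For *JMT*, *JRG21* and *VSP1* the upper ends of these intervals lie far below the rise in wild type.

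In roots the same comparison gave 0 of 4 for *phr1*, where 13.5% of all probe sets passed, and 0 of 4 for *phr1 phl1*, where 14.7% did. By unadjusted p under 0.05, *ACX1* was the only gene in either. It was 0.44 higher in *phr1* (adjusted p = 0.133 by limma) and 0.55 higher in the roots labelled *phr1 phl1* (95% confidence interval 0.17 to 0.94, adjusted p = 0.0501). The latter passed with the replicate number as a block (adjusted p = 0.0472) and when roots were fitted without shoots (0.00223). In that comparison 8 of 8 leaf markers were higher, and their part in the value was not tested. The plot of starved groups against wild type at +Pi shows these values beside the wild type response.

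**Figure D3:**
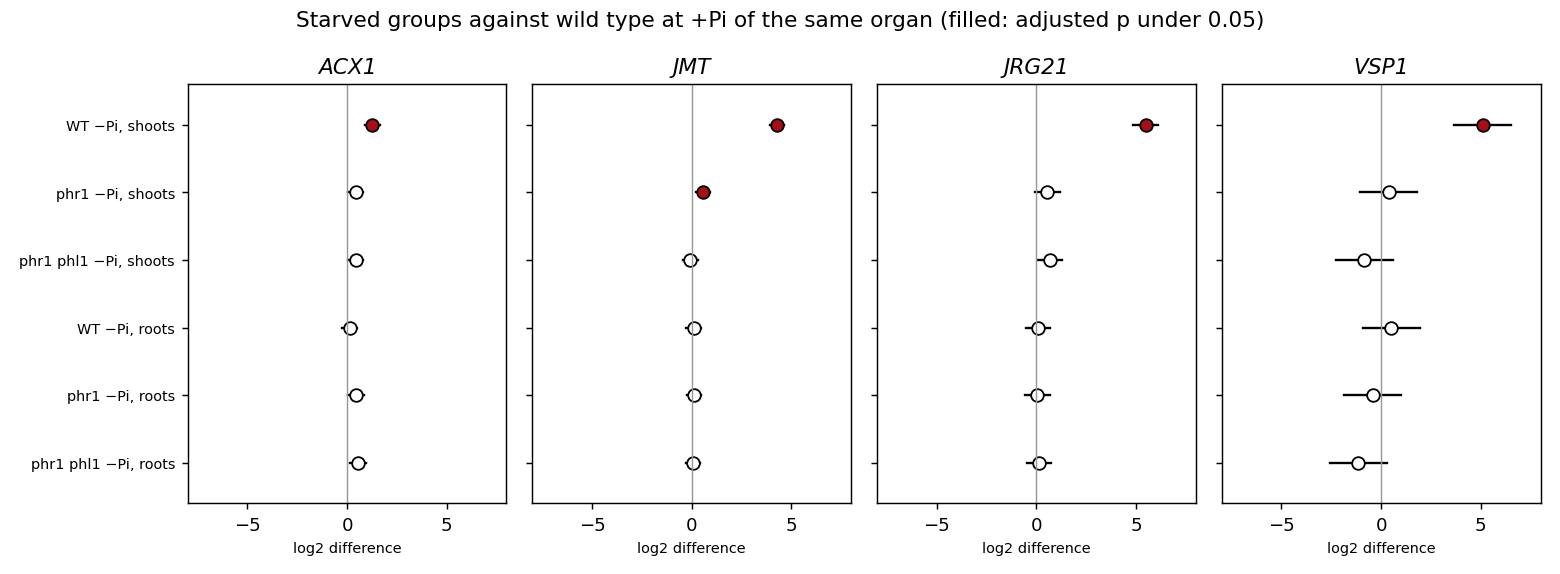
Log2 difference (x axis) of each Pi-starved group (rows) from wild type at +Pi of the same organ, for each gene (panels), with 95% confidence intervals as lines and filled points where limma's adjusted p was under 0.05. Wild type shoots stand far to the right for *JMT* (4.27), *JRG21* (5.48) and *VSP1* (5.10), and among the mutants only *JMT* in *phr1* shoots is filled.

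The wider jasmonate pathway was read from a list of 76 loci in 6 roles, also chosen with earlier results of these data known. Of these, 20 had a matched probe set, including the 4 genes above. The others lacked a match in the annotation used, which does not show that the array lacks them. *LOX2*, *AOS*, *OPR3*, *JAR1*, *COI1*, *MYC2*, *JAZ1* and *JAZ10* were among those not read. None of the 9 loci of the plastid steps was matched, so the enzymes between the plastid fatty acid and the peroxisome were not read. In wild type shoots, 10 of 20 probe sets rose and 3 fell, where 15.9% and 21.1% of all probe sets did. Without the 4 genes it was 6 and 3 of 16. The median log2 difference was 0.97 over the 20 and 0.25 over the 16, against −0.04 over all probe sets.

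In the peroxisome, 5 of 12 loci were matched. *OPCL1*, a CoA ligase that activates the jasmonate precursor for β-oxidation, rose from 6.13, 7.12 and 6.41 to 8.979, 8.341 and 9.003 in wild type shoots, without overlap (log2 2.22, adjusted p = 2.96e-07 by limma). Against starved wild type it was lower in *phr1* shoots (−1.96) and in those labelled *phr1 phl1* (−2.49; adjusted p = 1.72e-06 and 5.82e-08). *ACX4*, an acyl-CoA oxidase with a preference for short chains, moved the opposite way. It fell by 0.89 (adjusted p = 0.000478) and was 1.12 higher in the shoots labelled *phr1 phl1* than in starved wild type (adjusted p = 3.94e-05). *ACX4* was also the only listed probe set that differed between those shoots and *phr1* (0.78, adjusted p = 0.0263), where leaving out replicate 1 or 3 of *phr1*, or replicate 1 or 2 of *phr1 phl1*, left 0 passing. The β-oxidation enzymes AIM1 and KAT2 showed no rise in wild type shoots (0.15 and 0.06, adjusted p = 0.535 and 0.854), while *AIM1* was lower in the mutant shoots than in starved wild type, with differences of −0.64 and −0.86 (adjusted p = 0.00540 and 0.000310).

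Among the roles with matched probe sets, turnover held the most rises, with 5 of 6, where 15.9% of all probe sets rose. These rises include *JMT* and *JRG21*, already described above. *JOX2*, an oxygenase of the same group as *JRG21*, had a signal of 5.89, 7.10 and 6.41 in wild type shoots at +Pi and 10.38, 10.19 and 10.20 at −Pi (log2 3.79, adjusted p = 6.22e-11 by limma). Its difference from starved wild type was −3.02 in *phr1* shoots and −3.03 in those labelled *phr1 phl1* (adjusted p = 2.57e-09 and 1.45e-09), yet it remained 0.77 and 0.76 above wild type at +Pi (adjusted p = 0.0116 and 0.0139). *JOX2* was also the only listed probe set that rose in starved wild type roots, by 0.92 (adjusted p = 0.00683).

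*ILL6*, an amidohydrolase that splits jasmonate from its amino acid conjugate, rose from 6.23, 6.60 and 6.12 to 8.55, 8.57 and 8.73 (log2 2.30, adjusted p = 4.34e-10). It was lower in both mutant shoots, with differences of −1.36 and −0.83 (adjusted p = 6.81e-07 and 0.000168), but kept a signal 0.95 and 1.47 above wild type at +Pi (adjusted p = 9.77e-05 and 6.93e-07). *JOX4*, another oxygenase of the group, rose by 1.42 in wild type shoots (adjusted p = 0.00321), and in *phr1* shoots it differed from starved wild type by −0.05 (adjusted p = 0.947). Its signal was 6.63, 5.68 and 5.68 in starved wild type shoots, 5.32, 6.86 and 5.66 in *phr1* and 6.40, 7.91 and 6.84 in those labelled *phr1 phl1*. The latter was 1.05 higher than starved wild type (adjusted p = 0.0235), though 1 array overlapped. The fourth oxygenase, *JOX1*, was near 3 in every array.

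In perception and signalling, 4 of 21 loci were matched. *JAZ12*, a JAZ repressor, rose from 8.85, 8.73 and 8.80 to 9.95, 9.49 and 10.14 in wild type shoots (log2 1.07, adjusted p = 4.63e-05 by limma) and differed by −0.97 and −0.74 in the mutant shoots from starved wild type (adjusted p = 0.000153 and 0.00150). *JAM3*, a bHLH factor that represses jasmonate responses, did not pass in wild type shoots (0.22, adjusted p = 0.270) but was lower in both mutants than in starved wild type, with differences of −0.49 and −0.51 (adjusted p = 0.0146 and 0.00886). The transcription factor genes *MYC3* and *MYC4* passed in none of these comparisons, and replicate 2 was low for both genes in starved shoots of wild type and of *phr1* (4.23 to 5.05, against 5.82 to 6.91 in replicates 1 and 3).

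Of 17 response loci, 4 were matched. *THI2.1*, a jasmonate-inducible thionin, rose with *VSP1* in wild type shoots, from 3.82, 3.72 and 3.85 to 4.57, 4.87 and 5.63 (log2 1.23, adjusted p = 1.84e-05 by limma), and differed by −1.204 and −1.312 in the mutant shoots (adjusted p = 2.60e-05 and 6.96e-06). *PDF1.2*, a plant defensin of the branch that needs both jasmonate and ethylene, fell from 5.65, 6.90 and 6.35 to 4.02, 4.36 and 4.12 (log2 −2.13, adjusted p = 4.53e-08). *PDF1.2b* fell by 2.01 (adjusted p = 2.07e-08), although its probe set may also read *PDF1.2*.

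The defensins also differed from the 4 genes in the mutants. The log2 difference of *PDF1.2* from wild type at +Pi was still −1.77 in *phr1* shoots and −1.54 in those labelled *phr1 phl1* (adjusted p = 1.70e-06 and 8.47e-06 by limma), and that of *PDF1.2b* was −2.33 and −2.27 (adjusted p = 1.23e-08 and 1.93e-08). Against starved wild type, *PDF1.2* was 0.59 higher in the shoots labelled *phr1 phl1* (adjusted p = 0.0216) and *PDF1.2b* differed by −0.27 (adjusted p = 0.265). The lower level of both was therefore largely present in starved mutant shoots, whereas the higher level of *VSP1*, *JMT* and *JRG21* was not.

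**Figure D4:**
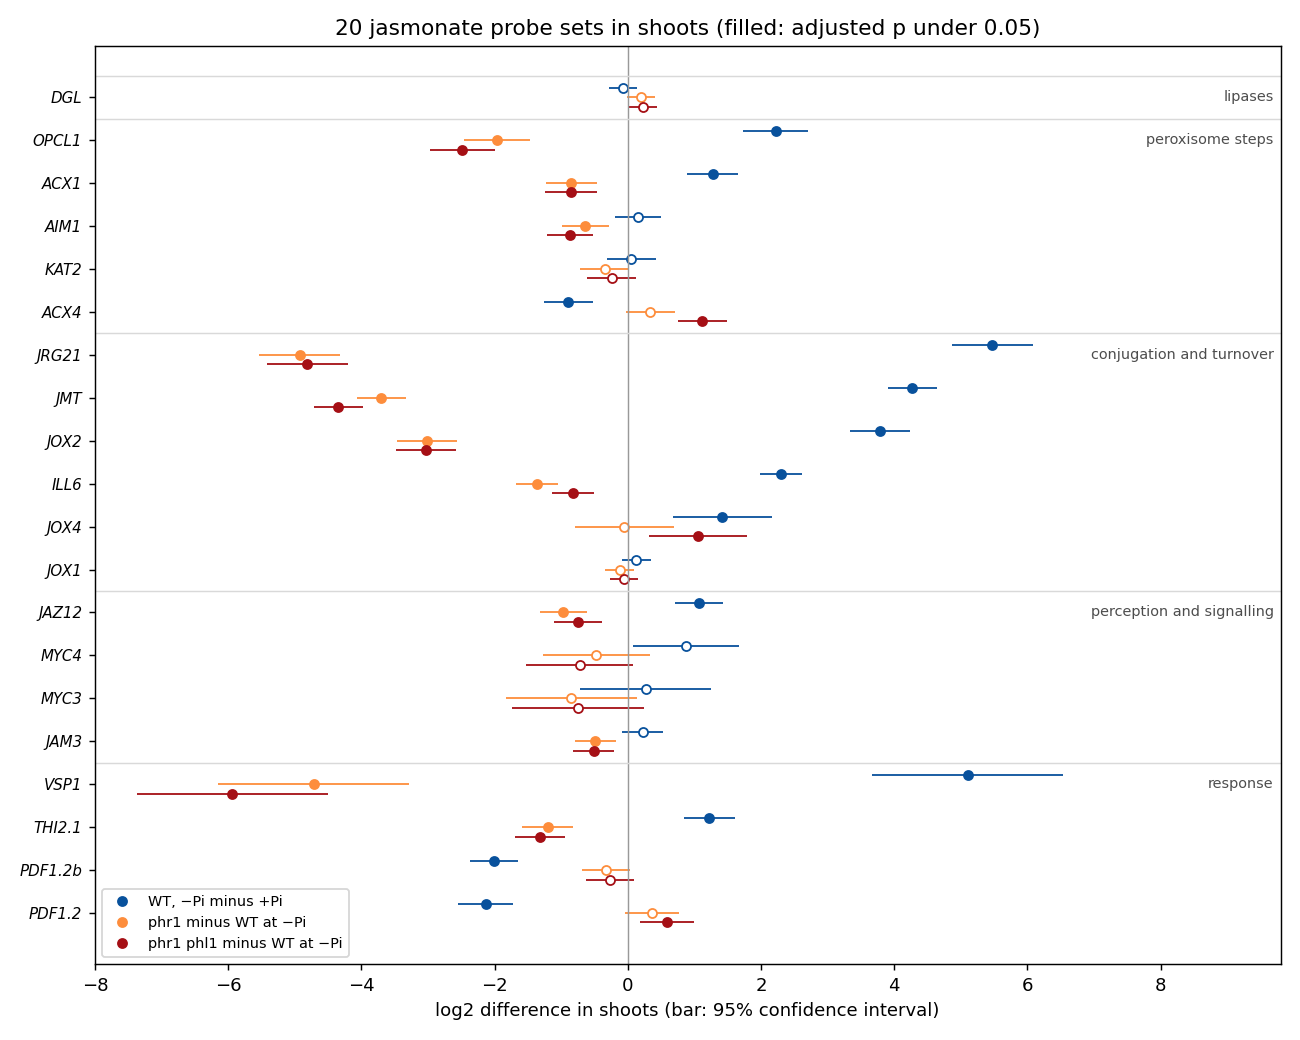
Log2 difference in shoots (x axis) for 20 jasmonate probe sets grouped by role (rows), for wild type at −Pi minus +Pi (blue), *phr1* minus wild type at −Pi (orange) and *phr1 phl1* minus wild type at −Pi (red), with 95% confidence intervals as lines and filled points where limma's adjusted p was under 0.05. *JRG21*, *JMT*, *JOX2* and *VSP1* show the widest blue and opposite red and orange values, *PDF1.2* and *PDF1.2b* are blue on the left, and *JOX4* and *ACX4* are red on the right.

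Over the whole list, 11 of 20 probe sets were lower and 0 higher in *phr1* shoots than in starved wild type, where 14.9% and 16.9% of all probe sets were called. In the shoots labelled *phr1 phl1* it was 11 lower and 3 higher (*ACX4*, *JOX4* and *PDF1.2*), where 16.4% and 20.6% were called. Without replicate 3 of the starved wild type shoots, 1 instead of 3 was higher. The median difference was −0.74 and −0.75, against 0.02 and 0.03 over all probe sets. Without the 4 genes, 7 of 16 were lower in each mutant, with medians of −0.48 and −0.62. In *phr1* roots 0 of 20 passed by limma, with 1 unadjusted p under 0.05 (*JOX2*), where 5.39% of all probe sets passed. In the roots labelled *phr1 phl1* 2 of 20 were higher, *ACX4* (0.74, adjusted p = 0.00672) and *KAT2* (0.54, adjusted p = 0.0461), where 13.1% of all probe sets passed in either direction. Both of these are enzymes of peroxisomal β-oxidation, and leaf markers were higher in those same roots. Other matched peroxisome probe sets did not pass: *ACX1* differed by 0.42, *AIM1* by −0.02 and *OPCL1* by −0.54 (adjusted p = 0.169, 0.970 and 0.159 by limma). The 10% of the list that passed lay below the share of all probe sets.

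Across the 8 group means, *JMT*, *JRG21* and *VSP1* followed each other (Pearson r = 0.988 for *JMT* and *JRG21*, 0.947 for *JMT* and *VSP1*, 0.944 for *VSP1* and *JRG21*), as a description of 8 points in which starved wild type shoots lie far from the rest. *ACX1* followed them less, with r from 0.502 to 0.741, and its second-highest group was the roots labelled *phr1 phl1*.

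Among 6420 probe sets that matched 1 gene and whose group means spanned at least 1 log2 unit, those most like each gene were picked by Pearson's r over the 8 group means. For *JMT* they were *AT5MAT*, an anthocyanin malonyltransferase (r = 0.998), *UGT76E12*, a glycosyltransferase (0.997), and *AT1G01250* (0.996). *AT5MAT* had a mean signal of 7.43 in starved wild type shoots and 4.21 in *phr1* shoots, the next highest group. For *JRG21* they were *AT4G12890* and *AT1G20735* (both 0.996) and *AT1G01250* (0.991), which was thus among the closest to both genes. Its mean signal was 8.81 in starved wild type shoots and at most 4.08 elsewhere. The group means of *AT4G12890* and *AT1G20735* spanned only 1.63 and 1.75 log2 units, so a high r does not mean a change of like size.

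For *VSP1* the closest were *TBL26* (r = 0.983), *AT1G22110* (0.982) and *4CL8* (0.981), and *TBL26* reached 10.1 in starved wild type shoots and 5.54 in *phr1* shoots. The group means of *AT1G22110* and *4CL8* spanned only 1.36 and 1.04 log2 units. *ACX1* had fewer close companions, since 3 probe sets exceeded an r of 0.95, against 54 for *JMT*, 53 for *JRG21* and 42 for *VSP1*. They were *MES9* (0.986), a methylesterase, *AT1G78070* (0.969) and *UBC32* (0.952), a ubiquitin-conjugating enzyme. Picked for this likeness, *MES9* had the same highest and lowest groups as *ACX1*: starved wild type shoots (8.44) and wild type shoots at +Pi (4.21). Next to the highest came *phr1* roots (6.60) and then the roots labelled *phr1 phl1* (6.47), in the reverse order to *ACX1*.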

How the data were processed

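RNA from shoots and roots was hybridised to ATH1 arrays in 8 groups of 3, with groups taken from sample titles. The log2 values were deposited after RMA (background correction, normalization between arrays and a summary over the probes of each set). Leaving out 64 controls, 1 linear model with 8 group means was fitted to 22746 probe sets with limma 3.58.1 in R 4.3.3, with Benjamini-Hochberg adjustment within each of 16 comparisons and an adjusted p of 0.05 as threshold, with no limit on the fold. The precision is set by the 3 arrays per group. Of the probe sets, 14152 matched 1 gene, 511 several and 8083 none. Of these matches, 647 came from probe set and locus columns of the supplementary tables, which also gave *ACX1* and *VSP1*; the authors' comparison columns there were not used.

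The members and gene lists were chosen with earlier results of these data known. Of the wider lists, up to 2 of the largest rises and falls that passed in each comparison were to be named, with 3 probe sets most like each gene; other list genes were named after their values were seen. The leaf markers are *RCA* and 7 more added by symbol. Among the comparisons within an organ, same-numbered arrays deviated together throughout only for starved shoots of wild type and *phr1* (correlations of 0.5, 0.65 and 0.43). The main model had no block, so its p-values for that comparison ignore this pairing. The replicate number served as a block only in alternative fits. The fit was tested on simulated data. Alternatives were the replicate block, separate or smaller fits, array weights, other normalization, variance, filter and threshold, and each array left out in turn. Promoter motifs were not analysed here.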

Additional observations from a re-analysis of the deposited data

Results flagged for a closer look

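The response to Pi in wild type differed between organs for all 4 genes by limma's interaction test: the log2 response in roots minus that in shoots was −4.18 for *JMT* (adjusted p = 1.16e-09), −1.14 for *ACX1* (0.00395), −4.58 for *VSP1* (0.00222) and −5.39 for *JRG21* (4.49e-08). The difference between starved *phr1* and starved wild type was likewise unequal, with roots minus shoots at 3.71 for *JMT* (adjusted p = 5.16e-09), 1.15 for *ACX1* (0.00329), 3.78 for *VSP1* (0.0084) and 4.89 for *JRG21* (1.05e-07). For *phr1 phl1*, named by its label, these values were 4.31 (adjusted p = 5.44e-10), 1.27 (0.00122), 4.27 (0.00285) and 4.87 (1.02e-07). The 3 interactions share the starved wild type arrays. For *JMT* and *JRG21*, root signals near the bottom of the range left little room for a lower value in the mutants.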

How the results depend on the processing

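Of 1040 values of the 4 genes under alternative settings, 979 kept their direction and their side of the threshold, 9 fell below it, 30 rose past it and 22 changed sign, 0 of these where either value had passed. The 2 alternatives chosen after seeing the data are the 2-group fit with a replicate block, and the fit without the 2 least correlated arrays (replicate 2 of starved wild type and *phr1* shoots). The calls of *JMT*, *JRG21* and *VSP1* against starved wild type shoots held under each alternative run for them; with the dimmest probe sets left out, *JMT* and *JRG21* were not tested. Where a call or count changed, the cause was not tested unless the setting itself gives it.

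The 2-fold threshold dropped *ACX1* in both mutant shoots (−0.85 each) and *JMT* in *phr1* shoots against wild type at +Pi (0.57). It gave list counts of 7 and 6 lower in the mutant shoots, and 0 higher in wild type roots, in the roots labelled *phr1 phl1* and in the shoots labelled *phr1 phl1* against *phr1*. With only the 2 groups compared, *ACX1* in *phr1* shoots (−0.85) and *JMT* against wild type at +Pi (0.57) no longer passed, the latter also with organs fitted separately (0.57). *ACX1* in roots passed against starved wild type in *phr1 phl1* (0.42 with separate organs, with only the 2 groups and without the 2 arrays, 0.39 with array weights). Against +Pi it passed in *phr1* (0.44 with the same 3, 0.37 with weights) and in *phr1 phl1* (0.55 with the replicate block, the same 3, the dim filter or a trended robust variance, 0.54 with weights). *JMT* in *phr1 phl1* against *phr1* shoots passed with array medians subtracted (−0.64), with array weights (−0.67) and without the 2 arrays (−0.68). Array weights also passed *VSP1* in *phr1* roots (−1.53), and *ACX1* (0.40) and *JRG21* (0.67) in shoots labelled *phr1 phl1* against +Pi, both of which passed without the 2 arrays (0.43 and 0.67). Between wild type organs at +Pi, *VSP1* passed with the dim filter (1.57) and *ACX1* without the 2 arrays (−0.26).

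Sign changes were of *JRG21* in *phr1* roots against starved wild type (0.02 with quantile normalization within organs), *JMT* in *phr1 phl1* roots against starved wild type and in *phr1 phl1* shoots against +Pi (0.01 each with weights), and *ACX1* in *phr1 phl1* against *phr1* shoots (0.00 with medians, 0.18 with weights, 0.34 without the 2 arrays).

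Small list counts moved. In *phr1* against starved wild type, weights gave 1 higher in shoots, and separate organs, 2 groups and weights each 1 higher in roots, with 1 lower under weights. In *phr1 phl1*, separate organs gave 1 higher in shoots; in roots separate organs, 2 groups and weights gave 4 higher, medians 1, and weights 1 lower. Between the mutants in shoots, 0 were higher with separate organs or 2 groups and 2 with weights or without the 2 arrays, and 1 was lower with medians, weights or without the 2 arrays. Between them in roots, 1 (separate organs), 2 (2 groups), 2 (weights) and 1 (without the 2 arrays) were higher, and 1 was lower with weights.

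With single arrays left out, the values ranged from −2.49 to −0.98 for *VSP1* in the roots labelled *phr1 phl1* (passed without replicate 2 of starved wild type roots) and from 0.99 to 2.17 between wild type organs. Against wild type at +Pi in *phr1* shoots they ranged from 0.43 to 0.72 for *JMT* and from 0.09 to 0.63 for *ACX1*. Values that changed sign ranged from −0.17 to 1.35 (*VSP1*) and from 0.00 to 0.18 (*JRG21*) for Pi starvation in wild type roots, from −0.04 to 0.08 (*JMT*) and −0.12 to 0.05 (*JRG21*) in *phr1* roots, and from −0.09 to 0.03 (*JMT*) and −0.03 to 0.18 (*JRG21*) in *phr1 phl1* roots, both against starved wild type. In *phr1 phl1* against *phr1* shoots they ranged from −0.20 to 0.34 (*ACX1*) and −0.17 to 0.61 (*JRG21*). Against +Pi they ranged from −0.22 to 0.97 (*VSP1*) in *phr1* shoots, from −0.21 to 0.07 (*JMT*) in *phr1 phl1* shoots and from 0.00 to 0.09 (*JRG21*) in *phr1* roots. List counts ranged from 0 to 2 higher in *phr1 phl1* against *phr1* shoots, from 1 to 3 higher in *phr1 phl1* shoots and 1 to 2 higher in roots against wild type, with 0 to 1 lower in those roots.

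Apart from *ACX1* at 0.55 in roots, the replicate block changed no call of the 4 genes, and in the 2-group fit of *phr1* shoots it gave −3.70, −0.85, −4.72 and −4.92 for *JMT*, *ACX1*, *VSP1* and *JRG21*, all past the threshold, and 11 list probe sets lower. Outside that pair, same-numbered arrays of the groups compared within an organ correlated from −0.59 to 0.56, without a steady pairing. For 14 of 24 arrays the closest array outside the group carried the same number. Same-numbered shoot and root arrays were not checked as pairs, and the organ interactions treat them as independent.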

Other observations

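Replicate 2 of starved *phr1* shoots stood 1.02 (*ACX1*) and 1.49 (*JRG21*) above the mean of replicates 1 and 3, but −0.10 for *JMT* and 0.08 for *VSP1*, so that the array did not hold all 4 genes high. Over the 3617 probe sets that rose at −Pi in wild type shoots, its median excess over the other 2 arrays was 0.262, with 72.7% of them higher. Over the 4809 that fell it was −0.107, and over all 22746 it was 0.053. Deviations of *ACX1* and *JRG21* from their group means had a Pearson r of 0.845 over the 24 arrays, and those of the other pairs of genes −0.119 to 0.248. For *ACX1* and *JRG21* this 1 array is the largest deviation among the 24.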
